A study of Mus musculus with 2 samples.

Results

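Integrins are adhesion receptors made of 1 α and 1 β chain, and their 10 subunit genes Itga1, Itga2, Itga4, Itgae, Itgal, Itgam, Itgax, Itgb1, Itgb2 and Itgb7 were followed here across the immune cells of the mouse liver. These 10 genes were chosen by name, as the α and β chains that lymphocytes and myeloid cells carry, out of 13528 genes in the filtered count table. They were read with 6 of 49 antibodies, which bind CD49a, CD49b, CD49d, CD103, CD11c and CD41, the products of Itga1, Itga2, Itga4, Itgae, Itgax and Itga2b. Transcripts and antibody-linked oligonucleotides of each CD45+ cell were counted as UMIs, the unique molecular identifiers that mark single molecules. TG mice express the transgene dnTGFβRII, in which the mouse CD4 promoter drives a human type II receptor for TGF-β that blocks the signal in T cells, and they model primary biliary cholangitis. WT mice are C57BL/6. The labels put all mice at 10 weeks of age, and the methods give a younger age. The TG cells came from 1 capture library that also held IFN-γ ARE-Del-/- cells, and the WT cells from another that also held P40-/-IL-2Ra-/- cells. Neither the labels nor the methods were found to say how many mice went into a library. Each genotype therefore rests on 1 library without replicates, no test could be made, and in every TG and WT difference below the genotype cannot be told apart from the capture.

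The TG library gave 4647 cells with 18498477 UMIs and a median of 3298 per cell, and the WT library gave 7282 cells with 22216379 UMIs and a median of 2653.5. Of these UMIs, 111775 belonged to the 10 integrin genes. The deposited cell table holds 14 cell type names and 30 clusters, of which 9 types and 14 clusters held at least 50 cells of both genotypes. Levels are UMIs summed over the cells of a type and divided by all UMIs of those cells, as CPM (UMIs in 1000000), and intervals in brackets are exact 95% intervals that cover counting error only. The 4 listed erythroid genes, all of haemoglobin, summed to 0.865 CPM over the TG library and 292 CPM over the WT library. B and T lineage genes occurred together in 12.95% of TG and 5.89% of WT cells. The part of either in the integrin values was not tested, and 36 cell numbers occurred in both libraries.

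Some names went against their markers. Cluster 5, which is all of the cells named Mono, held the neutrophil genes Retnlg at 10361 CPM and Csf3r at 2908 CPM, while the monocyte genes Ccr2 and Fn1 were at 30.3 and 0.892 CPM, so its values are given for cells named Mono. The cells named Macro joined 3 unlike clusters. Cluster 22 carried Xcr1 at 497 CPM and Clec9a at 390.8 CPM, which mark conventional dendritic cells, and cluster 15 carried Cd209a at 478.6 CPM. The macrophage genes C1qa, at 2046 CPM, and Adgre1, at 1017 CPM, stood in cluster 27, which held 23 WT cells and 0 TG cells. Among cells named NK, the T cell receptor gene Cd3e was high in TG cells of clusters 3 and 11, at 1608 and 1401 CPM, against 122 and 129.6 CPM in their WT cells and 133 and 67.5 CPM in cluster 8 of TG and WT. Cd3g was alike in cluster 3, at 855 CPM in TG and 880 in WT, against 74.3 and 57.9 CPM in cluster 8. Cluster 2, named CD8αα T, carried Cd8a at 1019 CPM with Cd8b1 at 36.8 CPM.

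An integrin holds a cell to a matrix protein or to a ligand on another cell, and its affinity is raised from inside the cell by talin and kindlin once a receptor has signalled. The α chain largely sets the ligand: α1 and α2 with β1 bind collagens, α4 with β1 binds VCAM-1 and fibronectin, α4 with β7 binds MAdCAM-1, and αE with β7 binds E-cadherin on epithelia. The leukocyte integrins αL, αM and αX pair with β2 and bind ICAM molecules and, for αM and αX, complement fragments. In mouse liver, CD49a is a familiar mark of resident lymphocytes and CD49b of circulating NK cells, and TGF-β is known to raise αE on T cells.

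Promoters of 7 of the 10 genes were matched in RefSeq on GRCm38.p6, as 250 bases before to 50 bases after the start. Those of 4 genes, whose levels differ between cell types below, are printed: Itga1 and Itga2, neighbours on chromosome 13, and Itgam and Itgax, neighbours on chromosome 7. Capitals mark every copy, on either strand, of 4 short motifs: GAGGAA, of the kind PU.1 binds, TGTGGT, of the kind RUNX factors bind, GTGTGA, of the kind T-box factors bind, and CAGACA, of the kind SMAD proteins bind. No 2 of the marked copies overlapped in these 4 windows. Of 32851 promoters of this length, 28.3% held the PU.1-type motif, 16.8% the RUNX-type, 14.5% the T-box-type and 21.0% the SMAD-type.
Itga1, chr13:115101915-115102214, minus strand: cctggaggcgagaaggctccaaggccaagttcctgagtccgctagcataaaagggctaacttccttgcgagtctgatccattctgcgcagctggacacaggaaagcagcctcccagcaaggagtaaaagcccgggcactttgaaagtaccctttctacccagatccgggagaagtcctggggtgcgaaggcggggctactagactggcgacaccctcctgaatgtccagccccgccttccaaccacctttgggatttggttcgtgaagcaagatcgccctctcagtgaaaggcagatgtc
Itga2, chr13:114932051-114932350, minus strand: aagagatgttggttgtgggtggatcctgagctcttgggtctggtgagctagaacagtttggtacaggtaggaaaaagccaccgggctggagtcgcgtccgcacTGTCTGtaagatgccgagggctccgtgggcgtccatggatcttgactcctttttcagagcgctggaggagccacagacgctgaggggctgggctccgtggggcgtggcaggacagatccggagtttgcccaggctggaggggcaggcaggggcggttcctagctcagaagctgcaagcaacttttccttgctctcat
Itgam, chr7:128062390-128062689, plus strand: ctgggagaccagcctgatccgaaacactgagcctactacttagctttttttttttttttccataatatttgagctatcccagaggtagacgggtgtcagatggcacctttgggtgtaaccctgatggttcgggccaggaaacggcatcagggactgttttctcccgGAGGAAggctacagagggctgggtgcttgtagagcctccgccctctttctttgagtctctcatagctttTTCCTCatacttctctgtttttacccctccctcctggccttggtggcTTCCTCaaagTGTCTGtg
Itgax, chr7:128129300-128129599, plus strand: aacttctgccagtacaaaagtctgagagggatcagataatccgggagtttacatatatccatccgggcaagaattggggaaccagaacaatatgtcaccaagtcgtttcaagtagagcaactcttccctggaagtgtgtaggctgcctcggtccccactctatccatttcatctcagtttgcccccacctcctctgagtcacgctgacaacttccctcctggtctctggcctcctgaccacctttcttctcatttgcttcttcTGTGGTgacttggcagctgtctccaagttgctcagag
The Itgam window held 3 PU.1-type copies and 1 SMAD-type copy, the Itga2 window 1 SMAD-type copy and the Itgax window 1 RUNX-type copy, and the Itga1 window held 0 copies of the 4. In the genes not printed, the Itga4 promoter held 4 copies, Itgb1 2 and Itgb7 1. These are matches of letters in 1 window, not binding sites. Itgae, Itgal and Itgb2 are the other members. In the GENCODE annotation of GRCm38, Itga1 lies at chr13:114953096-115101964, Itga2 at chr13:114833081-114932100, Itga4 at chr2:79255426-79333123, Itgae at chr11:73090583-73147446, Itgal at chr7:127296260-127335138, Itgam at chr7:128062640-128118491, Itgax at chr7:128129547-128150657, Itgb1 at chr8:128685654-128733200, Itgb2 at chr10:77530252-77565708 and Itgb7 at chr15:102215995-102231944, and all 10 are protein coding.

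**Figure D1:**
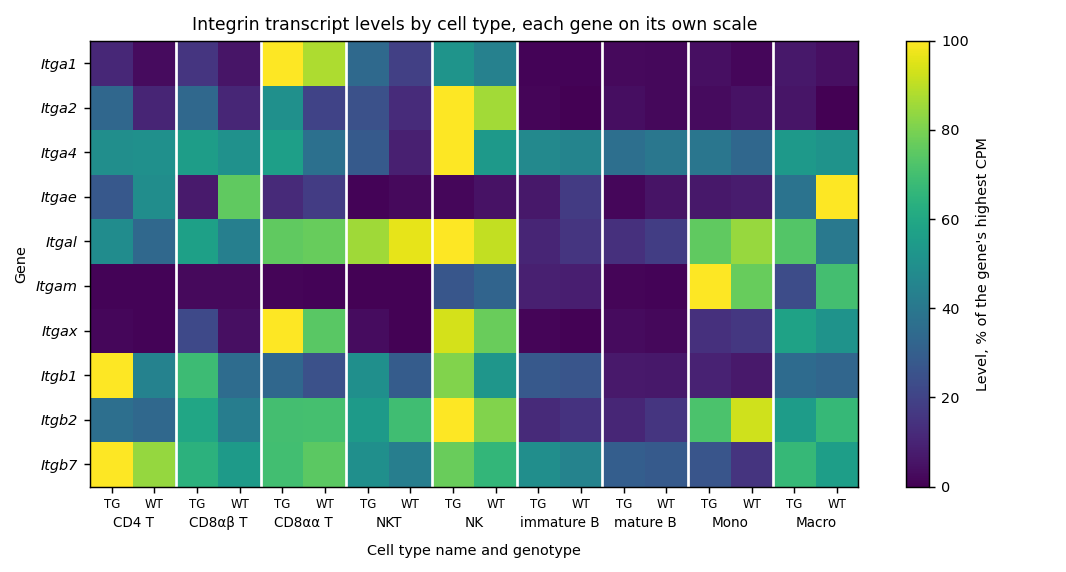
Level of each integrin gene in the 9 cell types with at least 50 cells per genotype, as a percent of that gene's highest level, for TG and WT cells. Itga1 sits highest in CD8αα T cells and Itga2 and Itga4 in NK cells, in both genotypes. Itgam sits highest in cells named Mono and Itgb7 in CD4 T cells, also in both. In WT the second type comes close for Itga4, Itgam and Itgb7.

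Itga1, the α1 chain CD49a of a collagen receptor, stood highest in CD8αα T cells, at 590 CPM [549 to 632] in TG mice and 516 CPM [458 to 580] in WT mice. NK cells followed at 305 CPM in TG and 258 in WT, then NKT cells at 202 and 111 CPM. CD8αβ T cells carried 90.1 CPM in TG and 32.3 in WT, and immature B cells 4.91 and 4.92 CPM. The first 4 places in this order were the same in both genotypes, and the levels in those 4 were apart by more than counting error. Within 1 library, CD8αα T cells exceeded CD8αβ T cells by 2.71 [2.54 to 2.88] on the log2 scale in TG and by 3.999 [3.66 to 4.34] in WT. Itga1 was thus 6.54-fold higher in CD8αα T cells of TG mice and 16.0-fold higher in those of WT mice. Without cluster 18 among the CD8αβ T cells, an alternative chosen after seeing the data, the TG value was 3.12. Both types were built from these same transcripts, so the values are a description.

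Antibody values, as deposited, are natural logs of 1 plus a ratio. The ratio sets an antibody's count in a cell against the geometric mean of count plus 1 over all 49 antibodies of that cell. A value of 0 thus means no counts, no value is negative, and small values above 0 lie below that mean. The medians for CD49a were 3.18 in TG and 2.97 in WT CD8αα T cells, 2.61 and 1.95 in NKT cells, 3.11 and 1.83 in NK cells, and 1.04 and 0.409 in CD8αβ T cells. Over these 4 types the order was that of the transcript in TG, while in WT NKT cells stood above NK cells. Cells named Macro, at 1.05 and 0.926, lay above CD8αβ T cells in WT and level with them in TG. Mature B cells, which should lack CD49a, were at 0.346 and 0.273. In CD8αα T cells the CD49a median was 3.18 in the 309 TG cells with an Itga1 UMI and 3.13 in the 101 without, so the split by transcript did not split the protein. In TG CD8αβ T cells it was 2.83 in the 242 cells with a UMI and 0.806 in the 778 without, and in WT NK cells it was 3.38 in 188 and 0.672 in 427. In these types a UMI of Itga1 marked cells with more surface CD49a.

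Itga2, the α2 chain read as CD49b, was highest among the 9 larger types in NK cells, at 117 CPM in TG and 101 in WT. CD8αα T cells came next with 58.9 and 23.6 CPM, and CD8αβ T cells held 39.4 and 12.7 CPM. Both B cell types stayed at or under 4.46 CPM, with 0 UMIs in WT immature B cells and WT cells named Macro, which allows up to 3.63 and 2.64 CPM. Outside these 9 types, the 45 TG and 16 WT basophils held 223 and 92.5 CPM, and their CD49b medians of 3.43 and 3.29 were above those of NK cells, at 2.01 and 1.23.

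The cells named NK split by α chain. Cluster 3 carried Itga1 at 516 CPM in TG and 492 in WT, whereas cluster 8 carried 28.3 and 5.51 CPM, which is a log2 ratio of 4.19 [3.47 to 5.01] in TG and 6.48 [5.11 to 8.36] in WT, the last from 4 UMIs in cluster 8. Itga2 went the other way, with 77.3 and 26.4 CPM in cluster 3 against 182 and 183 CPM in cluster 8. Itgam, the αM chain found on circulating NK cells, was at 11.4 and 38.4 CPM in cluster 3 and at 495 and 368 CPM in cluster 8. Of the 9 integrin genes with at least 10 UMIs, 1 was at least 2-fold higher and 2 lower in cluster 3 in TG, Itga1 against Itga2 and Itgam, and in WT 1 was higher and 3 lower, with Itga4 added. Over all genes 11.4% were 2-fold higher and 5.45% lower in TG, and 10.3% and 6.29% in WT. The surface held the same order, as CD49a medians were 3.40 in TG and 3.32 in WT in cluster 3 against 0.744 and 0.504 in cluster 8, and CD49b medians were 1.34 and 0.568 against 2.45 and 1.99. Eomes, a factor of circulating NK cells, was at 40.05 CPM in cluster 3 and 560 in cluster 8.

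Cluster 11, the remaining cells named NK, held 343 TG cells and 22 WT cells and did not sort to either side. In TG it carried Itga1 at 294 CPM and Itga2 at 111 CPM, and its cells were high for both surface chains, with medians of 3.24 for CD49a and 2.31 for CD49b. It also held the highest Itga4 level of the NK clusters in TG, at 1450 CPM, with Itgb1 at 1204 CPM and Itgb2 at 1502 CPM. The 22 WT cells held 1 UMI of Itga1 and a CD49a median of 0.561. Since this cluster made up 343 of the 759 TG cells named NK and 22 of the 615 WT cells, type-wide NK values mix the 3 clusters in unequal parts.

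**Figure D2:**
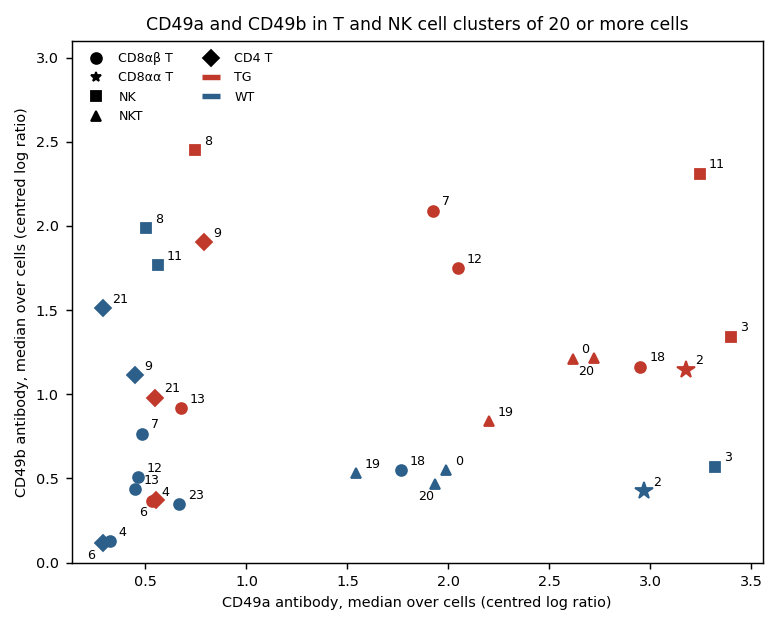
Median surface CD49a (horizontal axis) and CD49b (vertical axis), as the deposited log values defined in the text, of the clusters of T and NK cells in TG and WT. Cluster 3 lies at high CD49a with low CD49b, cluster 8 at the opposite corner, and cluster 11 of TG mice is high on both axes.

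Itga4, the α4 chain CD49d, was present in every type. Of the 9 larger types NK cells held most, at 1127 CPM in TG and 603 in WT, and NKT cells least, at 317 and 99.6 CPM. B cells, at 411 and 446 CPM in the mature and 532 and 509 CPM in the immature type, lay near the T cells. The WT levels of NK cells and cells named Macro, first and second in the order, were apart by less than counting error. In the 9 larger types CD49d medians ran from 0.745 in WT NKT cells to 3.20 in TG cells named Macro. Mature B cells were alike on the surface, at 2.06 in TG and 2.07 in WT, while NK cells were at 2.89 and 1.47.

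Itgae, the αE chain CD103, had 70 UMIs in all TG and 380 in all WT cells. This was the fewest of the 10 in TG, while Itga2 had fewer in WT, with 356. Among the 9 larger types it was highest in cells named Macro, at 19.6 CPM in TG and 51.4 in WT, and all of these UMIs came from the Xcr1 and Clec9a cluster 22, at 70.7 and 128 CPM. The γδ T cells, 17 in TG and 192 in WT, held 80.4 and 181 CPM, with CD103 medians of 0.469 and 2.04. NK and NKT cells held at most 2.49 CPM. In WT, CD103 was 1.42 in the 31 CD4 T cells with an Itgae UMI and 0.234 in the 703 without.

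The α chains that pair with β2 differed in the types where they stood high. Itgal, the αL chain of LFA-1, was spread over T, NK and NKT cells and the cells named Mono, between 364 and 1073 CPM, and low in mature B cells, at 149 CPM in TG and 195 in WT, and in immature B cells, at 113 and 166 CPM. Among the 9 larger types Itgam was highest in cells named Mono, at 608 CPM in TG and 467 in WT. The 54 TG and 17 WT cells named Neu held more, at 1343 and 969 CPM, and the 23 cells of cluster 27 held 2419 CPM. T and NKT cells held at most 16.0 CPM of Itgam, and immature B cells 54.0 and 52.1 CPM. Itgax, the αX chain CD11c known best from dendritic cells, was highest in killer lymphocytes: CD8αα T cells held 633 CPM in TG and 471 in WT and NK cells 593 and 489 CPM, above cells named Macro at 364 and 325 CPM. The antibody gave another order, since CD11c medians were 1.66 and 1.85 on cells named Macro, against 0.782 and 0.710 on CD8αα T cells and 0.594 and 0.574 on NK cells.

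The β chains were broader. Among the same 9 types Itgb2 was highest in NK cells in TG, at 1222 CPM, and in cells named Mono in WT, at 1135 CPM, and lowest in B cells, at 131 to 188 CPM. Itgb1 was highest in CD4 T cells in TG, at 1147 CPM, and in NK cells in WT, at 603 CPM, and lowest in mature B cells, at 78.6 and 75.1 CPM. Among the 9 larger types Itgb7 was highest in CD4 T cells in both, at 539 and 453 CPM, and the γδ T cells outside them held 852 and 798 CPM. Across the 10 genes, 6 had the same highest of these 9 types in TG and WT, namely Itga1, Itga2, Itga4, Itgae, Itgam and Itgb7. For Itgax the types that changed places, CD8αα T and NK cells, were apart by less than counting error in WT. For Itgae so were the first types in TG, cells named Macro and CD4 T cells, at 19.6 and 14.2 CPM. In WT the first and second types were also close for Itgam, cells named Mono and Macro at 467 and 426 CPM. They were close for Itgb7 too, CD4 T and CD8αα T cells at 453 and 404 CPM. In TG Itgax was at 633 CPM in CD8αα T and 593 in NK cells.

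**Figure D3:**
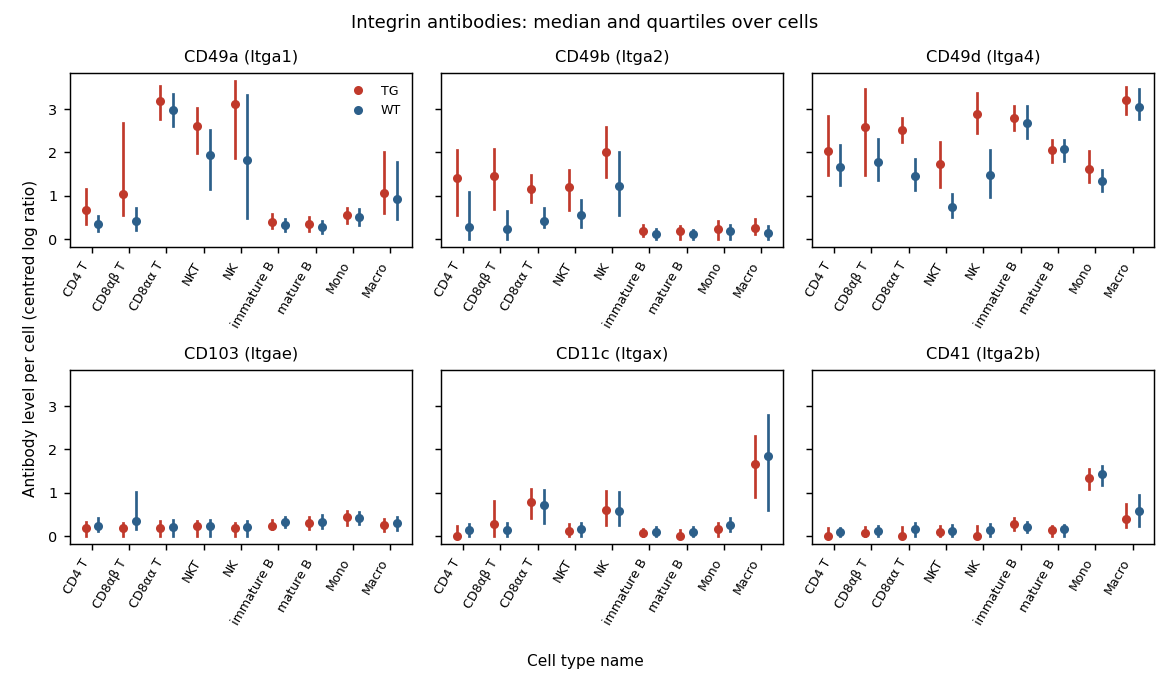
Surface levels of the integrin antibodies by cell type, TG beside WT, for the 9 types of at least 50 cells per genotype. Points are medians with quartiles over cells of the deposited log values defined in the text. Among these CD49a is highest on CD8αα T, NK and NKT cells and CD11c on cells named Macro, and CD49d lies further apart between TG and WT on NK cells (2.89 and 1.47) than on mature B cells (2.06 and 2.07).

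Whether partner chains were found in the same cells was counted for each α chain, its β chain, type and genotype with at least 20 cells on both sides, and detection rises with depth. Cells with the α UMI had the β UMI more often in 88 of 103 such counts and less often in 14, with intervals apart in 28 and 1. Of chains that do not pair, only Itga1 with Itga2 and Itga1 with Itgax were counted. In most types these went together too, so the count does not measure pairing. In WT CD8αβ T cells 70.2% [56.6 to 81.6] of the 57 cells with an Itga1 UMI had one of Itgb1, against 32.2% [28.8 to 35.6] of the 762 without, with median depths of 4254 and 2971 UMIs. In TG CD8αβ T cells, where the median depths of 4495 and 4559.5 UMIs were close, the shares were 84.3% and 73.1%. Of 881 TG CD8αβ T cells with Itgal, 89.9% had Itgb2, against 71.9% of 139 without. The 1 that went the other way beyond its intervals was Itga1 in WT NK cells, where 58.5% [51.1 to 65.6] of cells with it had Itgb1 against 74.9% [70.5 to 79.0] without, at median depths of 2684 and 2352 UMIs. Itga4 also went with lower shares of Itgb7 in WT NK cells, at 48.3% and 58.1%, and of Itgb1 in TG CD4 T cells, at 66.5% and 77.1%, with intervals that overlapped. Itga1 and Itga2 did not go together in WT NK cells, where 5.85% [2.96 to 10.23] of 188 cells with Itga1 had an Itga2 UMI against 25.8% [21.7 to 30.2] of 427 without. In TG NK cells the shares were 20.2% and 26.3%. In TG CD8αβ T cells Itga1 and Itga2 did go together, at 22.7% and 11.6%. Itga1 and Itgax, which do not pair either, went together in WT CD8αβ T cells, at 24.6% and 5.64%. In WT NKT cells their shares were alike, at 1.07% and 1.08%.

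Levels of transcript and antibody could be set side by side over 39 cluster profiles of at least 50 cells, which share 2 libraries and the authors' clustering. Pearson's r was 0.93 for Itga2 with CD49b, 0.92 for Itga1 with CD49a, 0.75 for Itga4 with CD49d, 0.70 for Itgae with CD103 and 0.67 for Itgax with CD11c. For Itgae the rank correlation was 0.28, and over 18 cell type profiles in place of clusters its r was 0.12. Those 18 leave out smaller types such as γδ T cells, and no r was computed without the profiles highest in Itgae. Among the 10 genes, Itgal and Itgb2, the chains of LFA-1, were the most alike pair, at r = 0.88. Over 10659 genes and the same profiles, the genes most like Itga1 were Cd160 (0.90) and Tnfsf10 (0.89), those most like Itga2 were Tmem37 (0.87) and Klrg1 (0.87), and those most like Itgax were Cd244a (0.90) and Ccl4 (0.87). For Itga4 the closest were Borcs7 (0.62) and Trak1 (0.61), and for Itgae Cyb5a (0.73) and Cyp2s1 (0.70). The closest to Itgal were Rab8b (0.87) and Nabp1 (0.86), to Itgam Gm49368 (0.87) and Gng5 (0.84), to Itgb1 Capn2 (0.89) and Cox6b1 (0.87), to Itgb2 Ccnd3 (0.91) and Lasp1 (0.87), and to Itgb7 S100a10 (0.84) and Anxa6 (0.84).

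The study set TG livers against WT livers. A gene was counted as apart in a type when its level differed at least 2-fold and both genotypes together held at least 10 UMIs. Of 85 integrin gene and cell type pairs, 11 were higher and 6 lower in TG, where 5.92% of all gene and type pairs were higher and 5.19% lower. With at least 100 UMIs, a minimum chosen after seeing the data, 6 of 64 pairs were higher and 2 lower, beside 1.62% and 1.21% of all pairs. The higher pairs were in CD4 T, CD8αβ T, CD8αα T and NKT cells and, from 20 UMIs, Itga1 in cells named Mono. The lower pairs were Itgae in CD8αβ T cells, mature B cells, immature B cells, NKT cells and cells named Macro, and Itgam in cells named Macro. The intervals of Itgae in mature B (from 3 and 10 UMIs), immature B (4 and 9) and NKT cells (1 and 9) and of Itga1 in cells named Mono (15 and 5) included 0.

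**Figure D4:**
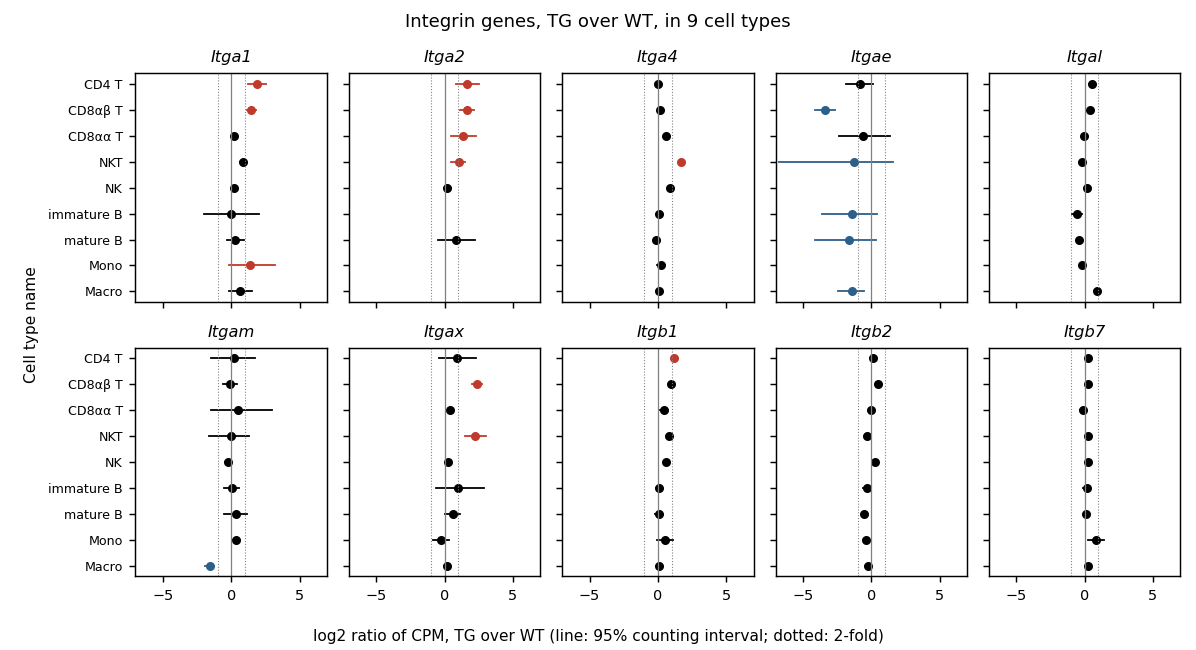
TG over WT log2 ratio of each integrin gene in 9 cell types, with exact 95% counting intervals, in red where at least 2-fold higher and in blue where lower, with pairs under 10 UMIs left out. In CD8αβ T cells Itgax (2.36), Itga2 (1.63) and Itga1 (1.48) lie above 2-fold and Itgae (-3.36) below, while NK cells have no gene past 2-fold.

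In CD8αβ T cells 3 of 10 integrin genes were at least 2-fold higher in TG and 1 was lower, where 5.55% of 11206 genes were higher and 4.33% lower. The median log2 ratio was 0.43 over the 10 and 0.03 over all genes. Itgax stood at 139 CPM in the 1020 TG cells and 27.1 CPM in the 819 WT cells, a log2 ratio of 2.36 [2.03 to 2.70]. Itga1 differed by 1.48 [1.17 to 1.81], and Itga2, at 39.4 and 12.7 CPM, by 1.63 [1.13 to 2.16]. Itgb1, the β chain that pairs with α1, α2 and α4, was at 787 and 406 CPM, a ratio of 0.96 [0.86 to 1.05], just under 2-fold, that was above it after thinning (1.405), with equal weight per cell (1.38) and without the 3 cells with the most Itgb1 UMIs (1.06). Itgae was lower in TG, at 3.77 CPM against 38.8 CPM, a log2 ratio of -3.36 [-4.13 to -2.67] from 20 and 119 UMIs. Itga4, Itgam, Itgal, Itgb2 and Itgb7 lay between -0.10 and 0.47. Of TG cells 23.7% [21.1 to 26.5] had an Itga1 UMI and of WT cells 6.96% [5.31 to 8.92], and after thinning to 1000 UMIs per cell the shares were 9.90% and 2.32%. In cluster 1 of the mature B cells, which should lack it, the shares were 2.14% and 0.602% (median depths 2898 and 1978 UMIs, against 4557 and 2996 in CD8αβ T cells).

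The antibodies moved in the same direction as the transcripts for all 5 measured chains in these cells. CD49b medians were 1.45 in TG and 0.244 in WT, CD49d 2.58 and 1.78, CD49a 1.04 and 0.409, CD11c 0.287 and 0.153, and CD103 0.183 and 0.358. CD103 and CD11c lay near the floor, with medians of 1 and 2 counts per TG cell. As shares of antibody counts their log2 ratios were -2.40 [-2.48 to -2.33] and 1.58 [1.51 to 1.65]. Quartiles over cells still overlapped for CD49a (0.547 to 2.67 in TG, 0.218 to 0.710 in WT). Erythroid genes summed to 0.377 CPM in TG and 182 in WT CD8αβ T cells, and 11.96% of TG and 3.17% of WT cells were called doublets or held B and T genes together. Without the latter cells the ratios in CD8αβ T cells were 1.73 for Itga1, 1.72 for Itga2, 2.27 for Itgax and -3.26 for Itgae. The 5 listed NK cell genes summed to 5893 CPM in TG and 1342 in WT, of which Gzma gave 5266 and 1017 CPM, Klre1 289 and 112 CPM and Ncr1 83.9 and 23.8 CPM. The 5 monocyte genes summed to 1733 and 914 CPM, of which Ly6c2, known also from memory CD8 T cells, gave 1626 and 775 CPM, and Lyz2 was at 18.3 in both. Cd4 was at 186 and 92.0 CPM, the 5 neutrophil genes at 296 and 133 CPM and the 3 plasma cell genes at 87.9 and 327 CPM. The part of the erythroid genes and of these marker genes was not tested.

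The CD8αβ class held different clusters in the genotypes. Clusters 7 and 12, with the granzyme gene Gzma at 6367 and 7759 CPM, held 319 and 249 TG cells against 132 and 73 WT cells, and cluster 4, with Gzma at 59.3 CPM, held 145 TG and 363 WT cells. When clusters were given equal weight the TG over WT ratios were 0.93 for Itga1, 1.59 for Itgax and 0.40 for Itgb1, and Itga4 turned from 0.14 to -0.29. Within clusters Itgax was higher in TG in cluster 7 (199 and 33.0 CPM, 2.59 [2.07 to 3.17]), cluster 12 (216 and 82.0 CPM, 1.401) and cluster 13 (2.39, from 42 and 4 UMIs), while in cluster 4 it was at 11.1 and 11.4 CPM. Itga1 was higher in clusters 7 (91.4 and 40.5 CPM) and 12 (120 and 41.0 CPM), and it reached 355 and 191 CPM in cluster 18, with 115 TG and 37 WT cells. In cluster 13 it was at 16.5 CPM in TG against 31.0 in WT (-0.91 [-2.02 to 0.21], from 16 and 15 UMIs), where CD49a was higher in TG by its median (0.674 and 0.447) and lower as a share of antibody counts (-0.28). In cluster 4 there were 1 and 3 UMIs of Itga1.

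Itgae was lower in TG in clusters 4, 7 and 13, and Itga4 in clusters 4 and 13, where cluster 13 held Gzma at 187 CPM. In cluster 4 Itgae was at 4.16 CPM in TG and 91.5 in WT, a log2 ratio of -4.46 [-6.76 to -2.87] from 3 and 96 UMIs, and the CD103 median was 0.159 against 1.03. This cluster held 96 of the 119 Itgae UMIs of WT CD8αβ T cells. In cluster 13 Itgae was at 3.096 and 14.5 CPM (-2.23 [-4.81 to -0.094], from 3 and 7 UMIs), with CD103 at 0.180 and 0.244. In cluster 7 it was at 3.72 and 10.7 CPM (-1.52 [-2.99 to -0.065], from 9 and 10 UMIs), with CD103 at 0.202 and 0.266. In TG the CD103 medians of clusters 4 and 7 were at 1 count per cell, near the floor. Itga4 was at 180 and 485 CPM in cluster 4 (-1.43 [-1.72 to -1.15]) and at 67.1 and 507 CPM in cluster 13 (-2.92 [-3.33 to -2.52]). It went the other way in cluster 7, at 766 and 487 CPM (0.65 [0.50 to 0.80]), and was at 1412 and 1279 CPM in cluster 12. Surface CD49d was lower in TG in cluster 4 (1.34 and 1.71) and cluster 13 (1.26 and 1.67) and higher in cluster 7 (3.55 and 1.74) and cluster 12 (3.25 and 2.86). The type-wide Itga4 ratio near 0 thus joined opposite differences. Itgb1 in cluster 4 was higher in TG, at 139 and 42.9 CPM (1.69 [1.17 to 2.23]). It was higher by less in cluster 7 (0.31), cluster 12 (0.45) and cluster 13 (0.61).

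**Figure D5:**
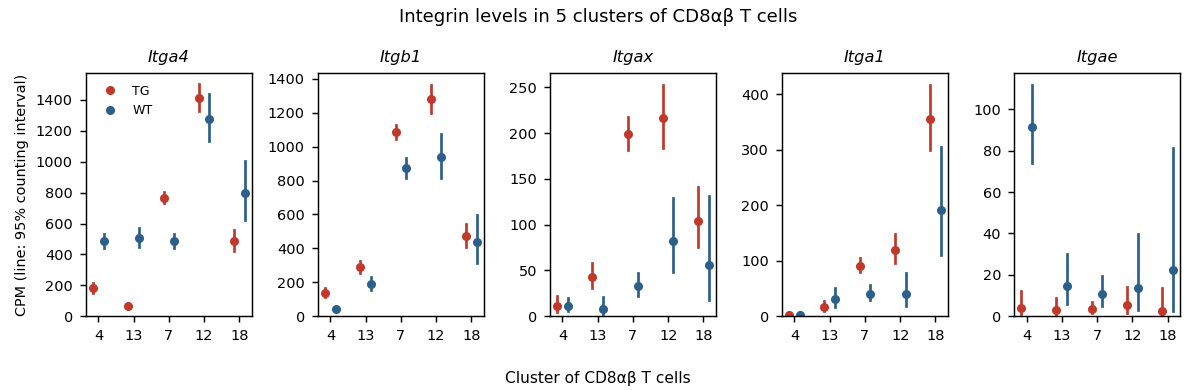
Levels in CPM, each gene on its own linear axis from 0, of Itga1, Itga4, Itgae, Itgax and Itgb1 in clusters 4, 13, 7, 12 and 18 of CD8αβ T cells, TG beside WT, with exact 95% intervals. Cluster 23, with 15 TG and 76 WT cells, is not drawn. Itgae is high in WT cluster 4 alone (91.5 CPM), and Itga4 is lower in TG in clusters 4 and 13 and higher in cluster 7.

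In CD4 T cells 3 of 10 genes were at least 2-fold higher in TG and 0 lower, where 7.53% of all genes were higher and 4.93% lower. Itgb1 was at 1147 and 510 CPM (1.17 [1.04 to 1.30]), Itga1 at 65.1 and 17.5 CPM (1.898 [1.26 to 2.56]) and Itga2 at 39.1 and 12.3 CPM (1.66 [0.86 to 2.49]). Surface CD49b was at 1.398 in TG and 0.273 in WT. The 2 largest clusters differed in Itgb1 in the same direction, at 333 and 75.1 CPM in cluster 6 and 1628 and 977 CPM in cluster 9, and cluster 9 held 52 of the 55 TG and 32 of the 34 WT UMIs of Itga1. Cluster 6 made up 58 of 238 TG and 397 of 734 WT CD4 T cells. In cluster 21, with 48 TG and 65 WT cells, Itgae was at 15.4 and 166 CPM and the CD103 median at 0.190 and 0.566.

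In NKT cells 3 of 10 were higher in TG and 1, Itgae, was lower, beside 5.77% and 4.37% of all genes. Itga4 was at 317 CPM in the 446 TG cells and 99.6 CPM in the 2232 WT cells (1.67 [1.51 to 1.84]), with CD49d at 1.72 and 0.745. Itgax was at 19.8 and 4.24 CPM (2.23 [1.47 to 3.00]), and the CD11c median was no higher, at 0.120 and 0.163. These CD11c values lie near the floor, with a median of 1 count per TG cell. Itga2, at 28.9 and 14.2 CPM, had a ratio of 1.02 [0.50 to 1.53] that became -0.092 after thinning to 1000 UMIs per cell, while CD49b was at 1.21 and 0.545. Cluster 0, with 403 of the TG and 1986 of the WT NKT cells, gave 1.69 for Itga4 and 2.21 for Itgax. Some other listed markers were higher in TG NKT cells, with Cd4 at 634 and 162 CPM and the 2 CD8 genes at 134 and 53.9 CPM. The 4 B cell genes were at 94.0 and 33.2 CPM and the 5 neutrophil genes at 328 and 124 CPM. Other sets were lower in TG, among them the 5 monocyte genes at 901 and 1289 CPM. The 3 γδ T cell genes were at 478 and 613 CPM and the erythroid genes at 1.13 and 23.3 CPM. The part of all these genes was not tested.

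In CD8αα T cells 1 of 10 genes, Itga2, was 2-fold higher in TG (1.32 [0.46 to 2.29]) and 0 were lower, where 8.14% of all genes were higher and 3.85% lower, so this count is near that over all genes. CD49b was at 1.15 and 0.425. Itga4 was at 638 and 415 CPM (0.62 [0.41 to 0.84]), with CD49d at 2.52 and 1.46. Itga1, Itgal and Itgb2 lay within 0.20 of 0. Against CD8αβ T cells of the same library, 2 of 10 integrin genes were at least 2-fold higher in CD8αα T cells in both genotypes, Itga1 and Itgax. In TG 1 was lower, Itgb1 (-1.05 [-1.18 to -0.91]), and in WT 2 were lower, Itgae (-2.09 [-3.74 to -0.83]) and Itgam, from 3 and 49 UMIs. Over all genes 10.4% were higher and 10.7% lower in TG, and 10.9% and 13.4% in WT. Itgax exceeded the CD8αβ level by 2.19 [2.05 to 2.34] in TG and 4.12 [3.76 to 4.49] in WT.

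In cells named NK 0 of 9 genes were 2-fold apart in either direction, where 5.55% of all genes were higher in TG and 5.79% lower. The nearest was Itga4 (0.90 [0.79 to 1.01]), which became 0.59 with equal weight per cluster, then Itgb1 (0.62 [0.51 to 0.73]). In cluster 3 alone, with 263 TG and 306 WT cells, Itga4 was at 731 and 222 CPM (1.72 [1.48 to 1.97]) and CD49d at 2.44 and 1.00, and in cluster 8, with 153 and 287 cells, Itga4 was at 1152 and 1018 CPM (0.18) and CD49d at 3.05 and 2.02. The sum of the 5 T cell genes also differed inside cluster 3, at 5572 CPM in TG and 2467 in WT. Of these, Cd3d, Cd3e and Trac were higher in TG. Trbc2 was at 1352 and 1120 CPM and Cd3g at 855 and 880 CPM. Cd4 was at 546 and 20.4 CPM in cluster 3. The sum of the 5 differed less in cluster 8, at 819 and 666 CPM. Cd4 differed in cluster 8 too, at 122 and 13.8 CPM, from 69 and 10 UMIs. Other genes were also 2-fold apart within clusters, namely Itga2 (1.55 [0.83 to 2.32]) and Itgam (-1.75 [-3.003 to -0.65]) in cluster 3 and Itga1 (2.36, from 16 and 4 UMIs) in cluster 8. The 5 listed T cell genes summed to 4071 CPM in TG and 1617 in WT cells named NK. Among them Cd3e was at 1158 and 97.8 CPM and Cd3g at 549 and 485 CPM. Cd4 was at 312 and 17.4 CPM in cells named NK. Erythroid genes summed to 1.31 and 1698 CPM. The part of either was not tested. In mature B cells Itgb2 (-0.52 [-0.69 to -0.34]), Itgal (-0.38 [-0.55 to -0.22]) and Itgax (0.59 [0.025 to 1.16]) differed by more than counting error but less than 2-fold, and Itga4, Itgb7 and Itgb1 lay between -0.12 and 0.09. In cluster 1, with 1028 of the TG and 1329 of the WT mature B cells, Itgb2 was at -0.24 [-0.46 to -0.019], Itgal at 0.0061 [-0.20 to 0.21] and Itgax at 0.39 [-0.48 to 1.29]. Cluster 17, with 29 TG and 155 WT cells, held T cell genes at 3234 and 4009 CPM, against 282 and 246 CPM in cluster 1. Itgam in cells named Macro was at 142 and 426 CPM (-1.58), and 376 of the 596 WT UMIs came from the 23 cells of cluster 27, which had no TG cells. In cluster 15 it was at 197 and 299 CPM (-0.60).

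The machinery that switches integrins on was read from a list of 33 genes, of which 30 were in the table. In CD8αβ T cells 1 of 28 with enough UMIs was at least 2-fold higher in TG and 0 were lower, near the 5.55% and 4.33% of all genes, with a median of 0.13 beside 0.03 over all genes. The 1 was Ptk2, the focal adhesion kinase, at 1.71 from 17 and 3 UMIs. Next in CD8αβ T cells came Vcl, the actin linker vinculin (0.79), and Rap1b, a GTPase that activates integrins (0.53), and the lowest were Cytip (-0.38), which binds cytohesins, Rasgrp1 (-0.37), which feeds Ras and Rap signalling, and Fyb (-0.16), an adaptor. Tln1, encoding talin, was at 461 and 415 CPM (0.15), and Fermt3, encoding the leukocyte kindlin, at 173 and 123 CPM (0.48), 2 genes chosen after their values were seen. In cells named Macro 1 of 29 listed genes was higher and 2 were lower, where 6.39% of all genes were higher and 7.51% lower. Of 23 listed ligand genes 11 were in the table, and 5 had enough UMIs in CD8αβ T cells. There Cdh1, encoding E-cadherin, was past 2-fold higher (1.79, from 12 and 2 UMIs) and Fn1, encoding fibronectin, lower (-1.38, from 6 and 9 UMIs), though the intervals of both and of Ptk2 included 0, while Icam2, Icam1 and Spp1 were at -0.14, -0.27 and -0.98. Over all cells 2 of the 11 ligand genes were higher and 3 lower, where 6.64% of all genes were higher and 7.15% lower. The higher were Lama5, encoding laminin α5, with 32 UMIs in TG and 0 in WT, and Col1a1, encoding collagen I, with 20 and 0 UMIs. The complement gene C3 came next, at 13.4 and 7.70 CPM (0.79 [0.51 to 1.08]). The lower were Fn1, at 3.30 CPM in TG and 55.5 in WT, Thbs1, encoding thrombospondin 1, at 7.95 and 27.3 CPM, and Icam4, with 0 and 14 UMIs. The 6 macrophage genes in the table summed to 5.19 CPM in TG and 83.3 in WT over the same cells, with 0 UMIs of 5 of them in TG, and cluster 27 had only WT cells. Their part was not tested.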

How the data were processed

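Single-cell RNA and antibody libraries of hepatic mononuclear cells (Percoll gradient, CD45+) were made with BD Rhapsody whole transcriptome and AbSeq chemistry. The authors processed reads with the BD WTA Multiplex Rhapsody Analysis Pipeline (1.9 in the file headers) on mm10, filtered cells by rules not given in the sources used here, and deposited UMI counts per gene and per antibody. The deposited antibody values are natural logs of 1 plus a centred ratio. Recomputing them over the 49 antibodies of a cell left 0 values apart by more than 1e-06. The deposited normalised RNA values were not used. The genotype, cell type and cluster of each cell were taken from the authors' cell table. The integrin UMI counts of every named cell matched those in the library files (0 cells differed). Each library was 1 sample, and its cells without a genotype name entered no comparison.

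UMIs were summed per type or cluster and genotype. CPM was given with exact Poisson intervals, log2 ratios with exact conditional binomial intervals and shares with Clopper-Pearson intervals, at 95%. Calls needed a 2-fold ratio and at least 10 UMIs over both profiles, in types of at least 50 cells per genotype. Likeness used log2(CPM + 10) over genes with at least 100 UMIs. Median depth was 3298 UMIs in TG and 2653.5 in WT cells. The calculations were tested on simulated data. Alternatives were equal weight per cell or cluster, TMM scaling (edgeR 4.0.16 in R 4.3.3), thinning to 1000 UMIs, totals that leave out ribosomal and mitochondrial genes, other minimums and folds, and removal of doublets, which Scrublet (scanpy 1.11.5) marked at 0.839% of TG and 3.31% of WT cells, together with cells that held 2 or more UMIs of B genes and of T genes. Doublets were kept in the reported values. Python 3.11.15, numpy 2.4.6, scipy 1.17.1, pandas 2.3.3 and matplotlib 3.10.9 were used.

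The members and gene lists were chosen with earlier results of these data known. The text names the 10 members, other integrin subunits with at least 50 UMIs, for the activation and ligand lists the 3 highest and 3 lowest ratios in the types described, the 2 genes most like each member, and markers.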

Additional observations from a re-analysis of the deposited data

Results flagged for a closer look

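The TG over WT difference in Itga4 went opposite ways in clusters of 2 cell types. The log2 ratio was 1.72 in cluster 3 of the cells named NK and -2.92 in cluster 13 of the CD8αβ T cells, with counting intervals far apart. The CD49d medians followed, at 2.44 in TG and 1.00 in WT in cluster 3 and 1.26 and 1.67 in cluster 13. Cluster 3 differed in some T cell genes too, with Cd3e at 1608 CPM in TG and 122 in WT. Cd3g was at 855 and 880 CPM there, and the part of these genes was not tested. For Itgam the ratio was 0.43 in cluster 8 and -1.75 in cluster 3, both of cells named NK, where cluster 3 held 9 and 32 UMIs. With 1 library per genotype the difference between the clusters was not tested.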

How the results depend on the processing

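The 17 called pairs of integrin gene and cell type became 32 at 1.5-fold, 8 at 3-fold, 8 with at least 100 UMIs and 16 with 0.5 UMIs added to each count. Shares over all genes were computed at 2-fold only, so the counts at 1.5-fold and 3-fold cannot be set against them. Under TMM scaling 17 of 17 kept their direction, under thinning 13 of 14 that could be computed, and with equal weight per cluster 14 of 14, of which 8 were still 2-fold apart. In CD8αβ T cells equal weight per cluster moved Itga1 from 1.48 to 0.93, Itgax from 2.36 to 1.59, Itgb1 from 0.96 to 0.40 and Itga4 from 0.14 to -0.29, and Itga4 in NK cells from 0.90 to 0.59, since clusters then count alike. Thinning to 1000 UMIs per cell gave 2.13 for Itga1 and 1.405 for Itgb1 in CD8αβ T cells and turned Itga2 in NKT cells to -0.092, and equal weight per cell gave 1.38 for Itgb1 and leaving out the 3 cells with the most UMIs 1.06. Itga1 of CD8αα over CD8αβ T cells in TG was 2.71, and 2.53 with TMM scaling, 2.46 with equal weight per cell and 3.12 without cluster 18.

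Within cluster 4, the largest cluster of CD8αβ T cells held by both genotypes, the TG minus WT antibody differences were 0.21 for CD49a, 0.24 for CD49b and -0.87 for CD103, against 0.63, 1.21 and -0.17 over the type, and they reversed for CD49d (0.80 to -0.37) and CD11c (0.13 to -0.017). In cells with 200 to 2000 antibody counts CD49a differed by 1.07. As log2 ratios to CD45.2, CD49b in cells named Macro was -0.54 and CD11c in mature B cells 0.26, and as shares of antibody counts CD49b in immature B cells was -0.061 and CD49a in mature B cells -0.0070, each opposite to the median difference. Median differences near 0 also changed sign as shares, for CD49d (0.11 to -0.37) and CD41 (0.069 to -0.016) in immature B cells, CD103 in CD8αα T cells (-0.023 to 0.13) and, in cells named Mono, CD103 (0.021 to -0.51), CD49b (0.050 to -0.41) and CD49a (0.040 to -0.21). The cause was not tested. The minimum of 100 UMIs, the added 0.5 UMIs and the removal of cluster 18 were chosen after seeing the data. No paired analysis was possible because each genotype had 1 library. Counts of a few UMIs, as for Itgae in TG, limit the precision, and intervals leave out the spread between mice.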

Other observations

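Other integrin chains were measured beside the 10. Of 16 further subunits listed, 14 were in the table and 12 had enough UMIs over all cells. Of these 3 were at least 2-fold higher in TG and 1 lower, where 6.64% of all genes were higher and 7.15% lower, with a median of -0.040 beside -0.021. Itgad, the αD chain whose gene lies next to Itgax on chromosome 7 and which also pairs with β2, was at 41.9 CPM over all TG cells and 7.88 CPM over all WT cells, a log2 ratio of 2.41 [2.17 to 2.66]. In CD8αβ T cells it was at 24.1 and 7.83 CPM (1.62 [0.99 to 2.32]). Of the 9 larger types, Itgad was highest in NK cells in TG, at 166 CPM, and in CD8αα T cells in WT, at 52.7 CPM. NK cells were 16.3% of TG and 8.45% of WT cells, and CD8αα T cells 8.82% and 2.66%. Itgb3, the β3 chain, was lower over all TG cells, at 28.5 and 53.7 CPM (-0.91). In WT its highest of the 9 larger types was NKT cells, which were 9.60% of TG and 30.7% of WT cells. In CD8αβ T cells Itgb3 was higher in TG, at 27.7 and 19.6 CPM (0.50 [0.060 to 0.96]). Among the same 9 types Itga6, the α6 chain of laminin receptors, was highest in CD4 T cells in both, at 104 and 125 CPM. Itga5, the fibronectin receptor chain, was highest among them in cells named Macro, at 71.9 and 55.0 CPM. The other higher genes were Itga7 (1.09 [0.22 to 2.01], from 32 and 18 UMIs) and Itga2b (1.07 [0.56 to 1.59], from 89 and 51 UMIs). Basophils, whose Itga2b level is given below, were 0.968% of TG and 0.220% of WT cells. The lower gene was Itgb4, with 0 UMIs in TG and 43 in WT, named after its values were seen. The part of the unequal cell numbers in these ratios over all cells was not tested. Itgav was at 0.25, Itga10 at -0.011 and Itga3 at -0.46.

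The CD41 antibody binds the αIIb chain known from platelets and megakaryocytes. By cell type name its median was highest on basophils, at 2.38 in 45 TG and 2.34 in 16 WT cells. The cluster of basophils held the transcript Itga2b at 439 CPM. Cells named Mono were next, with CD41 medians of 1.34 and 1.44, and cells named Neu followed at 1.17 and 1.02. In their clusters Itga2b was at 1.78 and 2.33 CPM, from 2 and 1 UMIs. The antibody and the transcript thus went together on basophils and not on the cells named Mono and Neu, and this was not tested further. On lymphocytes the CD41 median was at most 0.288.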
